A study of Mus musculus with 120 samples.

Results

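The genes described here encode 9 lysosomal proteins, 4 found in the lysosomal membrane or on late endosomes (Lamp1, Lamp2, Cd63 and Cd68) and 5 that are hydrolases, hydrolase cofactors or a precursor processed in the lysosome (Psap, Hexa, Lgmn, Gusb and Grn). They were chosen by symbol, and the 9 rows were read out of 23481 in the deposited count table across all 120 libraries. The libraries come from macrophages cultured from bone marrow of wild-type male C57BL/6 mice aged 12 weeks. All cells, controls included, had been transduced with a reporter virus for transcription factor activity, and the number of animals is not given. Libraries carry time labels 0, 1 or 4 without a unit (T0, T1 and T4 here), and by the series design stimulation with bacterial lipopolysaccharide (LPS) followed 30 minutes of compound. No label gives LPS for a single library, so T1 and T4 are taken as times after LPS. No library is labelled as unstimulated at T1 or T4, so LPS and time cannot be told apart in controls. By that design the time with compound also grows from T0 to T4, and it cannot be told apart from LPS either. Each time has 12 control libraries, 2 libraries at each of 7 halofuginone doses (2.4, 9.7, 39, 156, 625, 2500 and 10000 nM), and 2 at each dose with 2 mM proline added. Whether controls received proline is not labelled, nor are replicates labelled as separate cultures, so p-values measure only the spread between these libraries. Halofuginone, a plant alkaloid derivative, occupies the prolyl-tRNA synthetase active site and competes there with proline.

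Lysosomes digest proteins, lipids and glycans that reach them from endosomes, phagosomes and autophagosomes, and macrophages are rich in them. Heavily glycosylated membrane proteins such as LAMP1 and LAMP2 line the inner face of the organelle, soluble hydrolases work in its acid lumen, and small cofactors present lipids to those enzymes. Transcription factors of the TFEB and TFE3 family act on many lysosomal genes through promoter elements that contain the E-box CACGTG.

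Promoter windows are shown for members that hold such an E-box or an AP-1 site (TGAGTCA), because AP-1 is a factor family that LPS activates and the E-box is the core shared by many lysosomal promoters. RefSeq sequences of 300 bases, from 250 before to 50 after the start, were matched for all 9 genes (11 starts) on GRCm38.p6, and both strands were searched. Each line runs 5′ to 3′ on the gene's strand with the motif in capitals.
Lamp1 (chr8:13159091-13159160, plus strand): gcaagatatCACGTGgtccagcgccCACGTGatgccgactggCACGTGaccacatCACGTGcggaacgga
Lgmn, internal start (chr12:102439093-102439152, minus strand): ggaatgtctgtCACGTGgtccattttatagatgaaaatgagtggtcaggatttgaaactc
Psap (chr10:60277568-60277627, plus strand): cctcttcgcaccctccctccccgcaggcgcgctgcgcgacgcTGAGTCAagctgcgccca
Cd68 (chr11:69666171-69666330, minus strand): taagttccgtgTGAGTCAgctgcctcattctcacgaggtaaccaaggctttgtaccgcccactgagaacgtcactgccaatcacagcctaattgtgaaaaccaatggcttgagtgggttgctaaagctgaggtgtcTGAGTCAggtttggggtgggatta

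The Lamp1 window holds the E-box 4 times, beginning 61, 45, 28 and 15 bases before the start, and the Lgmn window holds it 49 bases before an internal start. CACGTG was found in 2 of the 11 member promoters and in 7.15% of 32851 promoters of the same length. The extended form GTCACGTG, which overlaps the E-box, was also found in 2 of the 11, against 2.25% of all promoters. TGAGTCA lies 18 bases before the start of Psap and 149 and 24 bases before that of Cd68, and 5.2% of all promoters hold it. The cAMP response element TGACGTCA was present only in Gusb, 4 bases before its start (1.79% of all promoters), and the amino acid response motif TGATGCAA was in none of the 11 windows (0.895% of all promoters). These matches describe letters in a window and are not binding sites.

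On GRCm38 (GENCODE M21), Lamp1 spans 13159161 to 13175338 of chromosome 8, Psap 60277627 to 60302597 of chromosome 10, Hexa 59539540 to 59565109 of chromosome 9 and Grn 102430315 to 102437048 of chromosome 11. Libraries of this kind count the 3′ end of a transcript, so the last exon carries most of the reads. The last exon of Lamp1 overlaps Grtp1 on the opposite strand. Grtp1 had 5 counts in all 120 libraries, against 2218 for Lamp1.

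The libraries are shallow, which sets how much can be said of each gene. Totals ran from 20000 to 114061 counts (median 49515), of which the ribosomal precursor Rn45s took 27.0 to 71.1%, so that 5798 to 69316 counts were left for other genes. The 9 members together had 20 to 384 counts in a library, and over all libraries from 824 (Cd68) to 8717 (Grn). In the T4 library at 625 nM with proline numbered 2, only 20 counts fell on members, and Psap, Cd63, Lamp1 and Hexa were among those at 0. Rn45s took 47.7% ± 3.21 of counts in T0 controls and 62.3% ± 1.17 at high doses of halofuginone (SD, n = 12 and 6), 38.0% ± 4.76 and 64.6% ± 2.22 at T4. Macrophage genes such as Csf1r (4739 counts), Tyrobp (4723) and Sirpa (3996) were plentiful, while Lyz2 had 18 counts. B cell markers had 4 counts, T and NK cell markers 21, dendritic cell markers 15, fibroblast markers 19, erythroid markers 1 and mast cell markers 0. Neutrophil markers had more, with 594 counts for S100a9, 407 for S100a8, 181 for Ngp, 32 for Camp and 30 for Ltf. Mpo and Retnlg of that list had 1 count each and Elane 0.

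Levels are given in CPM, counts relative to library size after joint scaling of all 120 libraries, and fold changes as log2 values from edgeR with their standard errors (SE). Fits were scaled on only the libraries they include, and their folds need not equal the ratio of 2 printed levels. Statements that a library lies below or above the controls use the joint scale. On it the median over all genes at high dose without proline was -0.49 log2 at T1 and -0.61 at T4. In the fits these medians were -0.21 and -0.23. Treated libraries at T1 and T4 thus sit lower against controls in CPM than in the folds, for genes in general. Called means a Benjamini-Hochberg adjusted p under 0.05 over all genes tested. In bulk RNA, fewer cells of a type and less RNA per cell cannot be told apart.

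In controls, most of the 9 mRNAs were lower at T4 than at T0, and the fall was deepest for Gusb and Lgmn. At T4 against T0, 7 of the 8 tested members were lower and none higher, where 40% of all 708 tested genes were called lower and 36.4% higher. Their median was -0.78 log2, against -0.14 over all genes tested. At T1, 3 of the 8 were lower, against 7.91% of all genes, and at T4 against T1 6 of 8, against 31.2%. With no filter on low counts, 4 members were called at T4 against T0, 0 at T1 and 3 at T4 against T1, all lower. Calls over all genes also became a smaller share. In the same order, 1183, 55 and 911 of 12496 genes were lower with no filter. With the filter 283, 56 and 221 of 708 were. Cd68, a glycoprotein of macrophage lysosomes and endosomes, did not pass the filter on low counts and had a mean of 140 ± 90.2 CPM at T0 and 77.0 ± 41.4 at T4 (SD, n = 12).

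**Figure D1:**
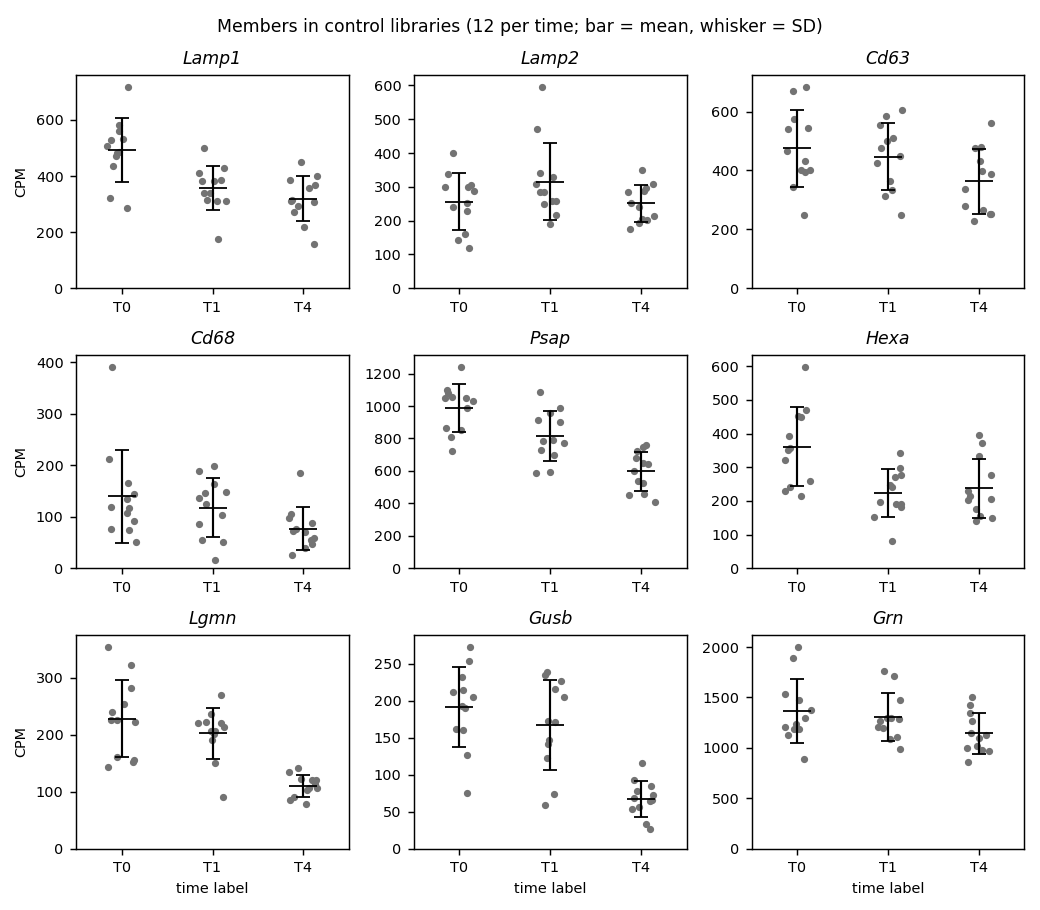
Level of each member in the 12 control libraries of each time label, in CPM on a linear axis from 0; each point is 1 library, the horizontal bar the mean and the whisker the SD. All T4 values of Lgmn and most of those of Gusb sit below their T0 values, whereas the T4 values of Lamp2 (177 to 350) lie inside its T0 range (120 to 400).

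Psap encodes prosaposin, which is cut in the lysosome into the saposins that present sphingolipids to hydrolases. Its control levels had a low, median and high of 725, 1039 and 1242 CPM at T0, 586, 788 and 1089 at T1, and 411, 621 and 760 at T4. The T4 range overlaps that of T0 only at its top. The fall from T0 to T4 was -0.88 log2 (SE 0.11, adjusted p = 5.65e-10), that from T1 to T4 -0.54 (SE 0.11, adjusted p = 5.13e-05), and that from T0 to T1 -0.35 (SE 0.11, adjusted p = 0.0133), which was no longer called with median-of-ratios scaling (-0.29, adjusted p = 0.0536) or with no filter on low counts (-0.18, adjusted p = 0.606).

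Gusb, the beta-glucuronidase that trims glycosaminoglycans, had 75.3, 199 and 273 CPM at T0 as its lowest, median and highest control values and 26.7, 66.8 and 116 at T4. The T4 fold change was -1.65 (SE 0.23, adjusted p = 9e-09), and most of it came after T1. Gusb at T1 (58.8, 172 and 239 CPM) was at -0.30 against T0 (SE 0.21, adjusted p = 0.336), and T4 against T1 at -1.36 (SE 0.24, adjusted p = 1.71e-06). Lgmn, the asparaginyl endopeptidase legumain that activates cathepsins and processes antigens, was likewise called at T4 against T1 (-0.97, SE 0.19, adjusted p = 8.14e-06) and not at T1 against T0 (-0.23, SE 0.18, adjusted p = 0.365). It stood at 144, 226 and 355 CPM at T0 and at 77.6, 110 and 141 at T4, with no overlap between the ranges (-1.20, SE 0.18, adjusted p = 6.69e-08).

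Hexa, the alpha subunit of beta-hexosaminidase that degrades GM2 ganglioside, and Lamp1 were called lower at T1 against T0 and not at T4 against T1. Hexa went from 362 ± 117 CPM at T0 to 224 ± 71.0 at T1 (-0.75, SE 0.19, adjusted p = 0.00169) and was 238 ± 87.4 at T4 (-0.01 against T1, SE 0.20, adjusted p = 0.957). Lamp1 went from 493 ± 114 to 357 ± 79.9 CPM (-0.55, SE 0.15, adjusted p = 0.00308) and was 320 ± 80.2 at T4 (-0.24 against T1, SE 0.15, adjusted p = 0.16). Both genes spread widely within a time, and their T0 and T4 ranges overlap. With no filter on low counts neither T1 call was made (Hexa -0.58, adjusted p = 0.108, and Lamp1 -0.38, adjusted p = 0.379), nor was that of Hexa at T4 against T0 (-0.45, adjusted p = 0.0946).

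Cd63, a tetraspanin of late endosomes and exosomes, moved from 476 ± 131 CPM at T0 to 363 ± 109 at T4 (-0.57, SE 0.16, adjusted p = 0.00144), a call lost with no filter on low counts (-0.26, adjusted p = 0.311). Grn, which encodes progranulin, a secreted growth factor that is also cut into granulins inside lysosomes, moved from 1367 ± 318 to 1144 ± 202 CPM (-0.42, SE 0.11, adjusted p = 0.000741), a call lost with median-of-ratios scaling (-0.23, adjusted p = 0.0651), with DESeq2 (adjusted p = 0.0615) and with no filter (-0.11, adjusted p = 0.583). Lamp2, whose splice forms include the receptor of chaperone-mediated autophagy, was 256 ± 83.2 CPM at T0 and 251 ± 54.6 at T4 (-0.16, SE 0.18, adjusted p = 0.399). The small T4 against T1 differences of Lamp2 (-0.39), Cd63 (-0.39) and Grn (-0.29) were called, but none of the 3 was called with median-of-ratios scaling, DESeq2 or no filter. Leaving out single controls ended these calls in 20 (Lamp2), 9 (Cd63) and 7 (Grn) of 36 fits.

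At the high doses (625, 2500 and 10000 nM together, 6 libraries against 12 controls) the members did not move as 1 group. Psap was lower at all 3 times, Hexa and Lamp1 were lower at T0, Hexa and Cd63 were lower at T4, and Grn was higher at T0 and T4. At T0, 1 of 9 members was called higher and 3 lower, where 15% and 23.5% of 1130 genes were. At T1, 1 was higher and 1 lower of 9, against 11.3% and 23.3% of 1066 genes, and at T4, 1 was higher and 3 lower of 8, against 19.1% and 35.5% of 1315 genes. The member medians were -0.30, -0.09 and -0.08 log2, beside -0.19, -0.21 and -0.23 over all genes tested, so the members as a list lay near the background.

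**Figure D2:**
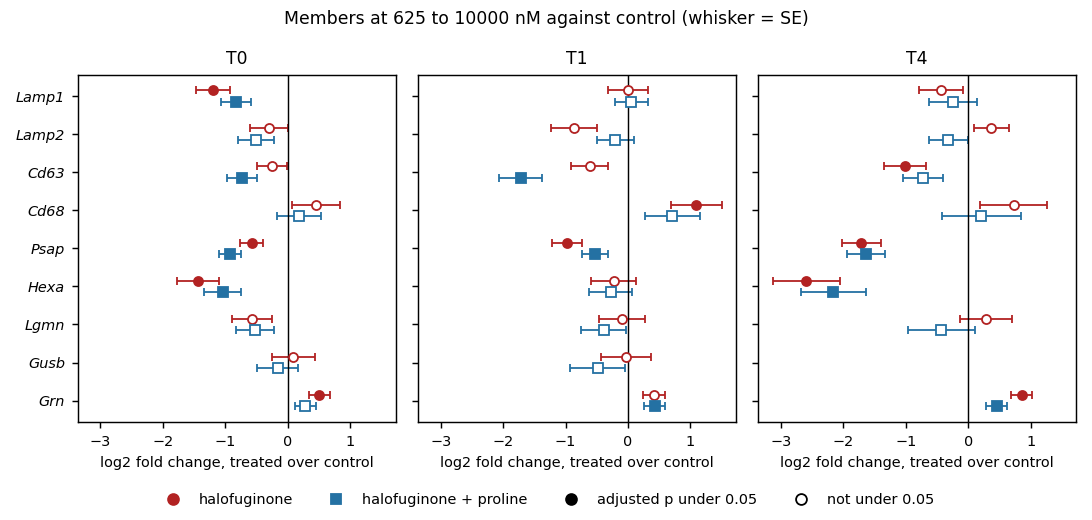
Fold change of each member at 625 to 10000 nM against control, by time, on a log2 axis with SE whiskers; circles are halofuginone alone, squares halofuginone with proline, and filled symbols have an adjusted p under 0.05. Psap lies left of 0 in both arms at all 3 times, Hexa reaches -2.59 at T4, and Grn lies right of 0 in every panel.

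For Psap at T0, the 6 high-dose libraries held 615 and 511 CPM at 625 nM, 760 and 790 at 2500 nM and 746 and 376 at 10000 nM. Of these, 3 lie below the lowest control (725) and 3 inside the control range. The fold change was -0.58 (SE 0.18, adjusted p = 0.00663) and lost its call without the 10000 nM dose (-0.45, adjusted p = 0.0643) and without its library numbered 2 (adjusted p = 0.0556).

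At T1, Psap stood at 607 and 405 CPM at 625 nM, 310 and 493 at 2500 nM and 271 and 147 at 10000 nM, 5 of the 6 below the lowest control (586). The fold change was -0.98 (SE 0.23, adjusted p = 0.000631), and -0.58 (adjusted p = 0.0834) without the 10000 nM dose.

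At T4 the groups separated fully. Psap was 260 and 155 CPM at 625 nM, 55.9 and 107 at 2500 nM and 192 and 129 at 10000 nM, against control values from 411 to 760. The fold change was -1.71 (SE 0.31, adjusted p = 3.19e-06), and it stayed past the threshold in every alternative that was run. Psap was thus lower at T4 than at T0 in controls. Under halofuginone at T4 it was lower again, at 150 ± 70.6 CPM (n = 6) against 599 ± 121 in T4 controls (n = 12).

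**Figure D3:**
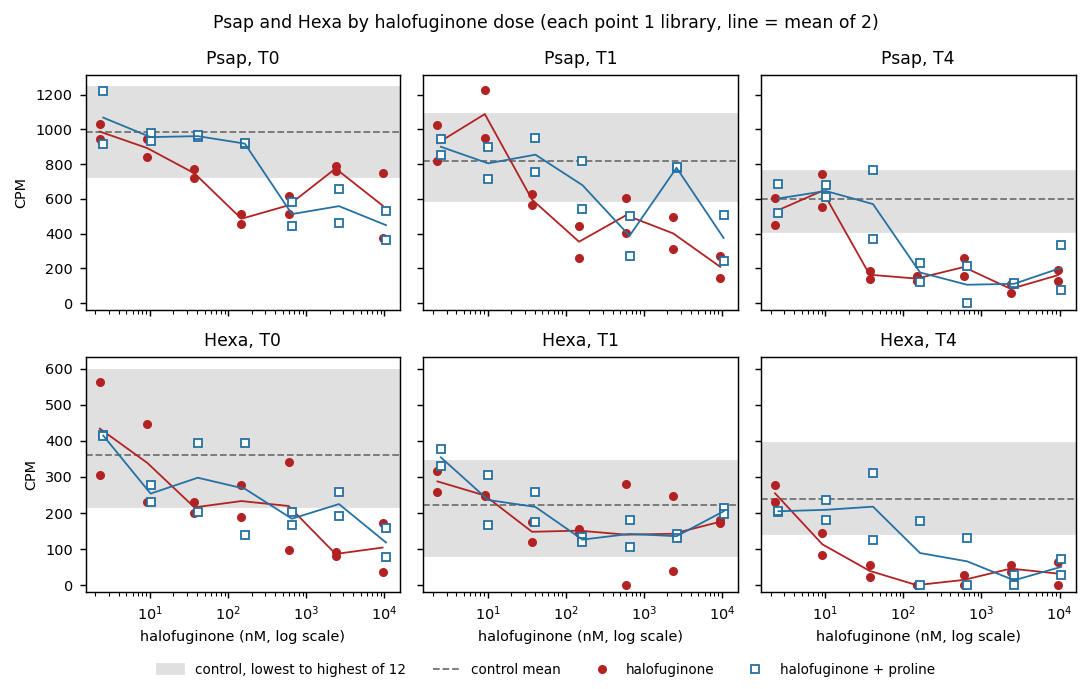
Psap (upper row) and Hexa (lower row) against halofuginone dose on a log axis, in CPM, by time; each symbol is 1 library (filled circles without proline, open squares with proline), lines join the means of 2, and the grey band and dashed line give the range and mean of the 12 controls. At T4 all Psap libraries from 39 nM upwards without proline lie below the control band, while at 39 nM with proline they are 371 and 768.

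Hexa at T0 was 342 and 97.3 CPM at 625 nM, 91.1 and 81.8 at 2500 nM and 37.3 and 171 at 10000 nM. Only the first of these lies inside the control range of 216 to 598 (fold change -1.44, SE 0.34, adjusted p = 0.000377). At T4 it was 28.8 and 0 CPM at 625 nM, 55.9 and 35.8 at 2500 nM and 64.1 and 0 at 10000 nM, all below the lowest control (141). The fitted change at T4 was -2.59 (SE 0.54, adjusted p = 4.55e-05). It rests on 7 Hexa counts in the 6 libraries against 231 in the controls, a ratio of 0.135 (95% counting interval 0.0537 to 0.283) that covers counting error only. At T1 Hexa did not pass the test (-0.23, SE 0.36, adjusted p = 0.643). Its 6 values ran from 0 to 280 CPM, and without the 625 nM library numbered 2 the estimate was -2.43 (adjusted p = 0.0389).

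Lamp1 at T0 was 273 and 316 CPM at 625 nM, 122 and 191 at 2500 nM and 149 and 205 at 10000 nM, 5 of 6 below the lowest control (286). The fold change was -1.20 (SE 0.27, adjusted p = 0.000252). At the later times it was not called, with 0.00 (SE 0.33, adjusted p = 0.998) at T1 and -0.44 (SE 0.35, adjusted p = 0.302) at T4. The T4 libraries of Lamp1 ran from 55.9 to 608 CPM, and 4 of 6 lay below the lowest control (159). Without the highest of them (2500 nM, numbered 2) the T4 change was -1.34 (adjusted p = 0.00971), and it was -0.83 (adjusted p = 0.0412) when scaled over all 120 libraries.

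Cd63 was within reach of the controls at T0, where its libraries spread from 171 to 672 CPM (-0.25, SE 0.24, adjusted p = 0.431). At T4 it was 202 and 222 CPM at 625 nM, 168 and 35.8 at 2500 nM and 42.7 and 193 at 10000 nM, and all 6 lay below the lowest control (229). The fold change at T4 was -1.02 (SE 0.34, adjusted p = 0.0093). It was -0.81 (adjusted p = 0.0648) without the 10000 nM dose, and leaving out only the library numbered 1 of that dose gave an adjusted p of 0.0649.

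**Figure D4:**
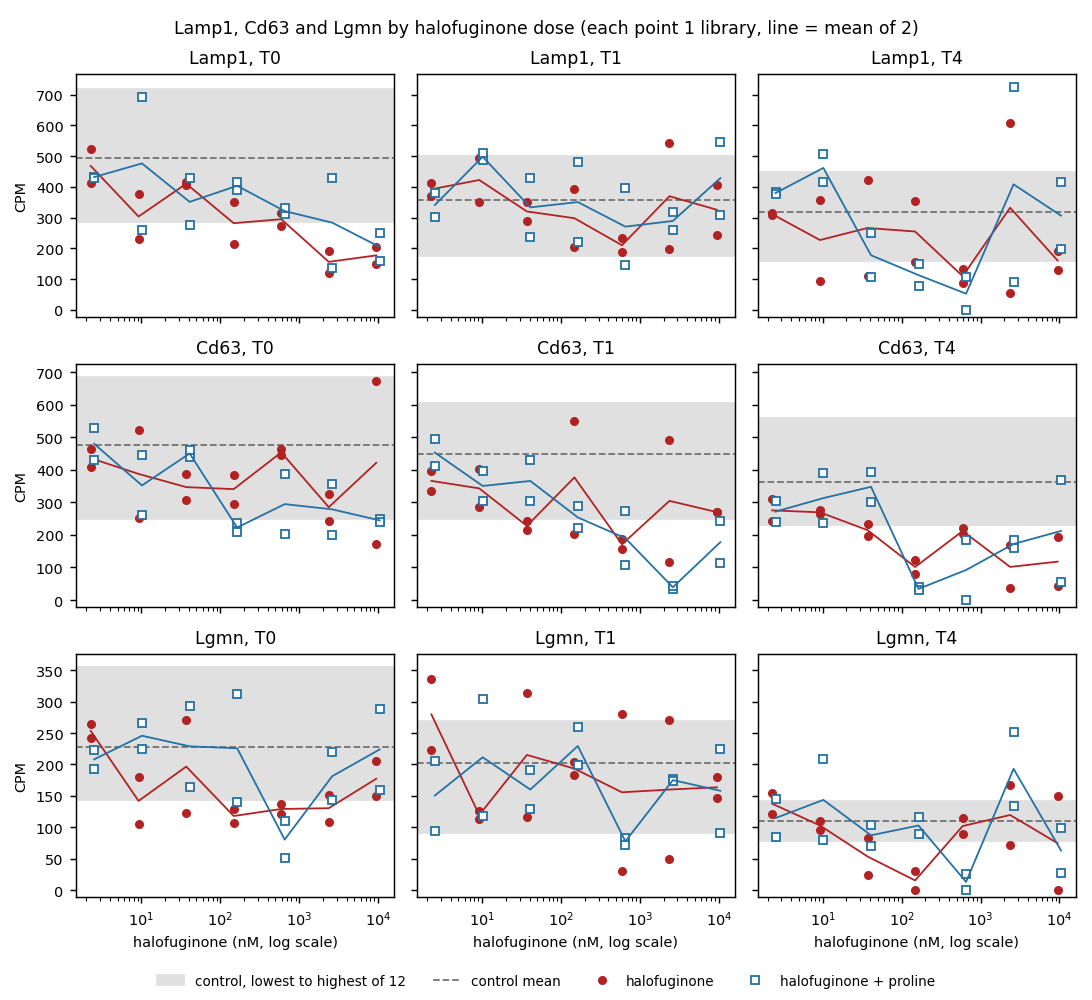
Lamp1, Cd63 and Lgmn against halofuginone dose, drawn as for Psap and Hexa: points are libraries in CPM, the dose axis is a log axis, and the grey band is the range of 12 controls. Lamp1 falls below the band at T0, Cd63 at T4, and Lgmn libraries are scattered around the band, with T4 values from 0 to 168 at the high doses without proline.

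Grn moved the other way. At T0 its high-dose libraries held 1641 and 1387 CPM at 625 nM, 2127 and 2371 at 2500 nM and 1418 and 2224 at 10000 nM, 3 of 6 above the highest control (2002). The fold change was 0.51 (SE 0.17, adjusted p = 0.0121) and was lost (adjusted p up to 0.165) without any 1 of 3 libraries, the 625 nM library numbered 1 and the 2500 and 10000 nM libraries numbered 2, and with no filter on low counts (0.17, adjusted p = 0.615). At T4 Grn was 1558 and 1796, 1342 and 1717, and 1986 and 1030 CPM at the same doses, 4 of 6 above the highest control (1502). That change was 0.85 (SE 0.16, adjusted p = 1.11e-05), and 0.41 (adjusted p = 0.173) when no filter on low counts was used. At T1 it was 0.42 (SE 0.18, adjusted p = 0.0601).

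Cd68 was called higher at T1 (1.1, SE 0.40, adjusted p = 0.0272), with libraries from 116 to 361 CPM against 15.7 to 198 in controls. The call rests on 34 counts in 6 libraries and was lost in 26 of 40 fits that left out 1 library, among them the fit without the 10000 nM library numbered 1, and without the 10000 nM dose (adjusted p = 0.108). It was also lost with no filter on low counts (0.45, adjusted p = 0.566) and without libraries under 30000 counts (0.68, adjusted p = 0.45). In the fit of controls alone Cd68 did not pass the filter. It may thus have entered the T1 test only through treated libraries where it was high, and the call is not independent of that. At T0 the Cd68 values at 10000 nM, 448 and 513 CPM, exceeded the highest control (391), whereas those at 625 nM were 0 and 146.

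**Figure D5:**
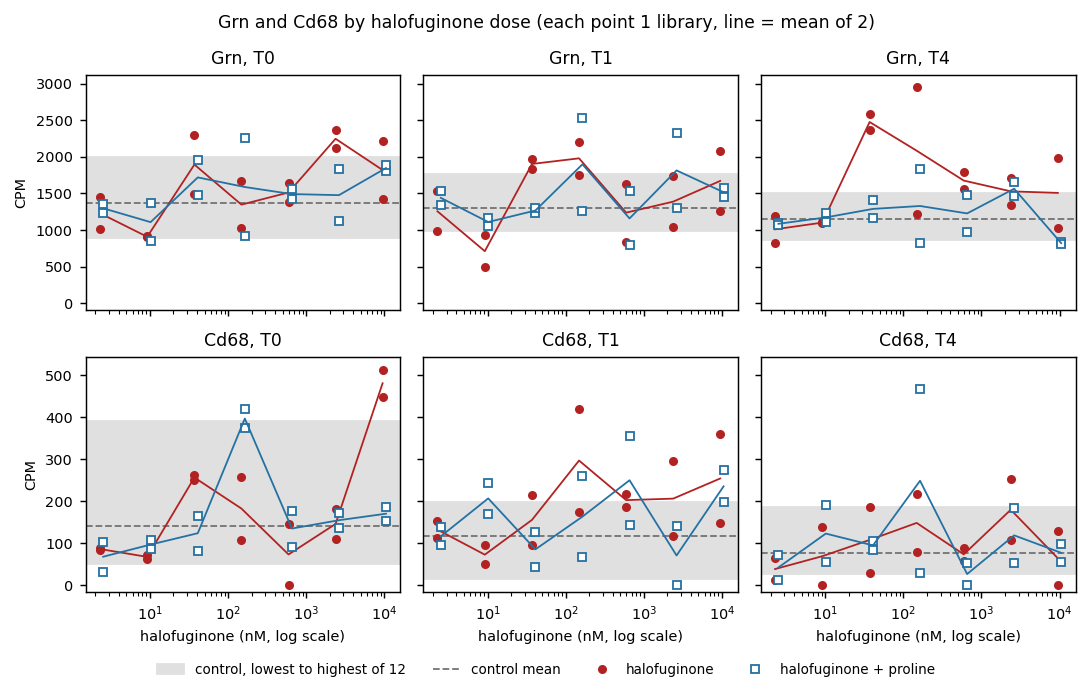
Grn and Cd68 against halofuginone dose by time, in CPM with a log dose axis; symbols, lines and grey band as for Psap and Hexa. At T4 without proline 3 of the 4 Grn libraries at 39 and 156 nM (2363, 2594 and 2951) lie over the control band, and the Cd68 points spread across most of the axis.

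Lamp2, Lgmn and Gusb were not called at high dose at any time. Lamp2 at T1 was 187 and 249 CPM at 625 nM, 38.7 and 98.6 at 2500 nM and 180 and 196 at 10000 nM, 4 of 6 below the lowest control (191), with a change of -0.86 (SE 0.37, adjusted p = 0.0601) that was called with median-of-ratios scaling (-0.98, adjusted p = 0.0306) and with DESeq2 (adjusted p = 0.0481). Cd63 at T1 likewise had -0.61 (SE 0.29, adjusted p = 0.0914) and adjusted p = 0.0427 with median-of-ratios scaling. With no filter on low counts both were called (-1.49, adjusted p = 0.00675, for Lamp2 and -1.24, adjusted p = 0.00577, for Cd63). For Lgmn the changes were -0.57, -0.09 and 0.28 at T0, T1 and T4, with adjusted p from 0.154 to 0.871. Gusb changed by 0.09 at T0 and -0.03 at T1 and did not pass the filter at T4, where 10 counts in 6 libraries against 67 in controls gave a ratio of 0.665 (95% counting interval 0.305 to 1.30).

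The difference between the T4 and the T0 effect of high-dose halofuginone was tested directly. Psap was the only member called, with -1.30 (SE 0.33, adjusted p = 0.0015), where 20.3% of 1077 genes were called lower and the median over all genes was -0.43. With median-of-ratios scaling, which moved that median to -0.07, the Psap difference was -0.93 (adjusted p = 0.0535), and with no filter on low counts -1.22 (adjusted p = 0.0922). Hexa (-1.40, SE 0.65, adjusted p = 0.127) and Cd63 (-0.98, SE 0.40, adjusted p = 0.0761) were not called. For T1 less T0 no member was called, against 6.13% of all genes, and 1 member had an unadjusted p under 0.05. DESeq2 called 1, Lamp1 (1.23, adjusted p = 0.0379).

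High doses with proline were compared with the same controls, so the values below are not independent of those without proline. At T0, 4 of 9 members were lower and none higher, where 24.3% of genes were lower and 19.2% higher. They were Psap (-0.92, SE 0.18, adjusted p = 1.44e-05), Hexa (-1.04, SE 0.29, adjusted p = 0.00275), Lamp1 (-0.83, SE 0.24, adjusted p = 0.00358) and Cd63 (-0.74, SE 0.24, adjusted p = 0.0103). All 6 Psap libraries, from 365 to 658 CPM, lay below the lowest control. Without the 10000 nM dose only Psap was still called, and Cd63 was also lost without the 2500 nM library numbered 1 (adjusted p = 0.0535).

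At T1 with proline, 2 of 9 were lower and 1 higher, against 23.5% and 15.3% of genes. Cd63 was 272 and 108 CPM at 625 nM, 35.3 and 43.5 at 2500 nM and 243 and 113 at 10000 nM, 5 of 6 below the lowest control (250), which gave -1.72 (SE 0.35, adjusted p = 4.95e-05). Psap was -0.52 (SE 0.21, adjusted p = 0.0375), lost without the 10000 nM dose (-0.38, adjusted p = 0.216) and, among 5 libraries whose omission ended it, without the 625 nM library numbered 1. Grn was 0.43 (SE 0.17, adjusted p = 0.0423), and this call was lost in 36 of 40 fits that left out 1 library, with DESeq2 (0.30, adjusted p = 0.168) and with no filter on low counts, where the estimate was -0.12 (adjusted p = 0.711).

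At T4 with proline, 2 of 8 were lower and 1 higher, against 33.4% and 18.6% of genes. Hexa was 132 and 0 CPM at 625 nM, 26.8 and 0 at 2500 nM and 73.8 and 27.7 at 10000 nM, all below the lowest control (-2.16, SE 0.52, adjusted p = 0.000383). Psap was 211 and 0, 107 and 115, and 73.8 and 333 CPM at the same doses, again all below the lowest control of 411 (-1.64, SE 0.30, adjusted p = 6.47e-06). Cd63 had -0.72 (SE 0.33, adjusted p = 0.0564) and was called with median-of-ratios scaling (-0.92, adjusted p = 0.017). Grn had 0.45 (SE 0.17, adjusted p = 0.0224) but 0.04 (adjusted p = 0.885) when scaled over all 120 libraries, 0.28 (adjusted p = 0.12) with DESeq2 and 0.03 with no filter. Gusb, untested here, had 4 counts in the 6 libraries, a ratio to control of 0.274 (95% counting interval 0.0725 to 0.735, counting error only, on the joint scale). With no filter on low counts edgeR did not call it (-2.67, adjusted p = 0.0601). Lamp1 was not called (-0.24, SE 0.38, adjusted p = 0.616) but was -2.11 (adjusted p = 0.0361) without the 2500 nM library numbered 1, which held 725 CPM.

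With and without proline were also set against each other at the high doses. edgeR called no member at any time, where 0.177%, 0% and 0% of all genes were called at T0, T1 and T4. DESeq2 called 0 as well, and 0, 1 and 1 members had an unadjusted p under 0.05. For Psap the differences were -0.34 (SE 0.22), 0.45 (SE 0.28) and 0.07 (SE 0.43), and for Hexa 0.40 (SE 0.43), -0.05 (SE 0.45) and 0.43 (SE 0.94).

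At the middle doses, 39 and 156 nM (4 libraries), Psap without proline was lower than control at all 3 times. The counts were 0 higher and 1 lower of 9 at T0 (background 13.7% and 14.7% of genes), 1 and 1 of 9 at T1 (12.9% and 16.1%), and 1 and 2 of 8 at T4 (14.7% and 25.9%). At T0 Psap was 772 and 722 CPM at 39 nM and 457 and 514 at 156 nM (-0.63, SE 0.20, adjusted p = 0.011). At T1 it was 565 and 627, then 262 and 445 CPM (-0.65, SE 0.23, adjusted p = 0.0285). These calls were lost without the 39 nM library numbered 2 or either 156 nM library at T0, and without the 39 or 156 nM library numbered 1 at T1 (adjusted p up to 0.0628 and 0.131). The T0 call was also lost with no filter on low counts (-0.72, adjusted p = 0.0963), and the T1 call with doses pooled (-0.59, adjusted p = 0.0749).

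At T4 the middle doses gave 187 and 139 CPM of Psap at 39 nM and 157 and 124 at 156 nM, all 4 below the lowest control (-1.61, SE 0.36, adjusted p = 0.000252). Hexa had only 3 counts in these 4 libraries, 23.4 and 55.8 CPM at 39 nM and 0 and 0 at 156 nM. Its ratio to control was 0.0941 (95% counting interval 0.0193 to 0.278). Grn was 2363 and 2594 CPM at 39 nM and 1221 and 2951 at 156 nM, 3 of 4 above the highest control, with a change of 1.35 (SE 0.18, adjusted p = 5.76e-09). Grn was also higher at T1 in these doses, where it held 1831 and 1978, then 2209 and 1754 CPM (0.73, SE 0.19, adjusted p = 0.00188, and adjusted p = 0.0824 without the 156 nM library numbered 1). With no filter this T1 change of Grn was 0.31 (adjusted p = 0.574). Cd63 and Lgmn were not called at T4 but were with median-of-ratios scaling, at -1.18 (adjusted p = 0.0152) and -1.72 (adjusted p = 0.0432).

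In the middle doses with proline, Psap was 954 and 969 CPM at 39 nM and 915 and 922 at 156 nM at T0, inside the control range. At T1 it was 756 and 953, then 818 and 540 CPM. At T4 it was 371 and 768 CPM at 39 nM and 234 and 119 at 156 nM, so that only the 156 nM dose lay wholly below the controls. The differences with against without proline were 0.58 (SE 0.23, adjusted p = 0.231), 0.63 (SE 0.28, adjusted p = 0.262) and 0.84 (SE 0.48, adjusted p = 0.32) at T0, T1 and T4, and edgeR and DESeq2 called 0 members at T0 and T1, where 1 had an unadjusted p under 0.05 at each time.

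Among the members, 0, 0 and 2 differed between the arms at the middle doses at T0, T1 and T4, where 2.12%, 1.31% and 3.73% of all genes did. The 2 at T4 were Grn and Hexa. Grn with proline was 1415 and 1163 CPM at 39 nM and 818 and 1840 at 156 nM, lower than without it (-0.97, SE 0.24, adjusted p = 0.0106). The Grn call was lost in 4 of 40 fits that left out 1 library, among them those without the 39 or the 156 nM library numbered 2 of the arm without proline or the 156 nM library numbered 1 of the arm with it. Hexa with proline was 124 and 312 CPM at 39 nM and 0 and 178 at 156 nM, 28 counts against 3 (ratio of without to with proline 0.129, 95% counting interval 0.0251 to 0.418; adjusted p = 0.0471). The Hexa call was lost in 11 of 40 such fits, either 156 nM library without proline among those left out, and without libraries under 30000 counts. Neither was called with no filter on low counts (adjusted p = 0.319 for Grn and 0.268 for Hexa).

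After the per-time tests of Psap had missed the threshold, the arms were compared over the 3 times together, a comparison chosen with those values known. In that fit 1 of the members was called at the middle doses, Psap (0.70, SE 0.21, adjusted p = 0.0463), where 3.5% of 1484 genes were. Over all genes the median difference in this fit was 0.04 log2. In 6 of the 6 groups by dose and time the Psap mean with proline was above that without. These values were known when the comparison was chosen, so the count adds no separate support to the call. The call was lost in 17 of 24 fits that left out 1 middle-dose library (adjusted p from 0.0189 to 0.168), for example without either T0 library at 156 nM without proline, and without libraries under 30000 counts (0.68, adjusted p = 0.173) or with no filter (0.83, adjusted p = 0.26). At the low doses, 2.4 and 9.7 nM, the Psap difference was -0.00 (SE 0.17, adjusted p = 1) and at the high doses 0.07 (SE 0.19, adjusted p = 1). edgeR and DESeq2 called 0 members there, with 0 at an unadjusted p under 0.05, against 3.3% and 0.741% of genes called. Hexa (1.34, SE 0.46, adjusted p = 0.0893) and Grn (-0.44, SE 0.16, adjusted p = 0.101) at the middle doses were not called over the 3 times.

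A slope over log10 dose was fitted within each time and arm to its 14 treated libraries and no control, in log2 units per 10-fold of dose. Without proline, 2 of 9 members had a rising and 1 a falling slope at T0 (15.1% and 11.4% of genes), 0 and 1 of 9 at T1 (7.38% and 10.4%) and 0 and 2 of 6 at T4 (14.9% and 23.2%). Psap fell by 0.41 (SE 0.12, adjusted p = 0.0189) at T1 and by 0.47 (SE 0.16, adjusted p = 0.0179) at T4. The T1 slope was lost without the 10000 nM library numbered 2 and without that dose (adjusted p = 0.137). Hexa fell by 0.48 (SE 0.15, adjusted p = 0.0189) at T0, lost without the 2.4 nM library numbered 1, and by 0.74 (SE 0.26, adjusted p = 0.0229) at T4, lost in 5 of 14 fits, the 10000 nM library numbered 2 among them. At T0 Cd68 (0.58, SE 0.18, adjusted p = 0.0218) and Grn (0.32, SE 0.10, adjusted p = 0.0175) rose with dose, each lost in 6 of 14 fits that left out 1 library, the 10000 nM library numbered 2 included. With no filter on low counts these were 0.40 (adjusted p = 0.256) and 0.13 (adjusted p = 0.572). Cd68, which did not pass the filter in controls, may have entered the T0 slope only through treated libraries where it was high. Its slope is not independent of that.

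With proline, the falling slopes were 2 of 9 at T0 (20.4% of genes), 1 of 9 at T1 (18%) and 1 of 7 at T4 (25.7%), and none rose (19.5%, 14.1% and 19.2%). Psap fell by 0.32 (SE 0.09, adjusted p = 0.00377) at T0 and by 0.50 (SE 0.15, adjusted p = 0.00905) at T4, Hexa by 0.34 (SE 0.13, adjusted p = 0.0312) at T0, and Cd63 by 0.43 (SE 0.14, adjusted p = 0.0156) at T1. The Hexa slope was lost in 3 of 14 fits, those without the 10000 nM library numbered 1 or either 2.4 nM library, without the 10000 nM dose (adjusted p = 0.204) and with no filter (adjusted p = 0.0987). At the 2 lowest doses the Psap libraries stayed within or above the control range in both arms. At T4 they held 451 and 604 CPM at 2.4 nM and 741 and 552 at 9.7 nM without proline, and 683 and 522, then 611 and 681 with it.

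A further 60 lysosomal membrane, hydrolase and transport genes gave the surroundings of the members, and 59 of them were in the table. At T4 against T0 in controls 8 of these were tested, of which 5 were lower and 1 higher, with a median of -0.93 log2, where 40% of all genes were lower and 36.4% higher. They included Creg1, a lysosomal glycoprotein (-1.40), Lipa, the lysosomal acid lipase (-1.39), and Laptm5 (-0.94), while Slc15a3, a peptide and histidine transporter, rose (1.95). At high-dose halofuginone 6 of 17 were lower and 2 higher at T0, 5 and 2 of 15 at T1 and 6 and 1 of 11 at T4. Over all genes 23.5%, 23.3% and 35.5% were lower and 15%, 11.3% and 19.1% higher in these comparisons, which also stand beside the counts of the lists that follow. Creg1 was lower at each time (-1.62, -1.81 and -2.0), as was Npc2, the soluble cholesterol carrier of the lysosome (-1.46, -1.30 and -1.59). Clcn7, the chloride and proton exchanger, was higher at T0 (1.93, SE 0.38). With proline 7, 5 and 5 of the same tested genes were lower and 2, 2 and 1 higher, against 24.3%, 23.5% and 33.4% and 19.2%, 15.3% and 18.6% of all genes. Of 12 cathepsin genes 7 were tested, and at high dose without proline 4, 4 and 5 were lower and 0, 1 and 1 higher at T0, T1 and T4. Of 17 V-ATPase genes, which acidify the lysosome, 0 of 7, 0 of 5 and 3 of 5 tested were lower and 1, 0 and 0 higher. Of 27 genes for sorting of lysosomal enzymes and control of lysosomal genes, only 2 to 4 were tested, and 1 was lower and 1 higher, both at T4.

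Summed over the 9 members, the level was 4501 ± 571 CPM in T0 controls, 3956 ± 328 at T1 and 3169 ± 247 at T4 (SD, n = 12). High-dose halofuginone libraries had 4010 ± 327, 3192 ± 392 and 2633 ± 498, and with proline 3483 ± 240, 3342 ± 495 and 2144 ± 744 (n = 6). The T4 direction without proline depends on the scale. As a share of counts without Rn45s, with no scaling factor, members took 0.562% ± 0.0442 in T4 controls, 0.63% ± 0.152 at high-dose halofuginone and 0.513% ± 0.144 with proline. At T0 these shares were 0.96% ± 0.109, 0.866% ± 0.0896 and 0.738% ± 0.0563, and at T1 0.811% ± 0.0645, 0.777% ± 0.118 and 0.748% ± 0.123. No test was run on either sum. At the low doses without proline the sum was 3908 ± 574, 3724 ± 600 and 2853 ± 110 CPM (n = 4), with 2, 1 and 3 of 4 libraries below the lowest control, and with proline 4174 ± 556, 4060 ± 236 and 3252 ± 327, with 1, 0 and 0. The members took unequal parts in it: at T4 without proline Grn supplied 1571 of the 2633 CPM at the high doses and Psap 150, against 1144 and 599 of 3169 in controls. Over the 45 group means of log2 level, Psap and Hexa went together (Pearson r = 0.84), and Grn ran against Hexa (r = -0.34) and Psap (r = -0.22). Depth differed between these groups, with median totals at T4 of 71225 counts in controls and 43278 at high-dose halofuginone. Its part in the correlations was not tested. Of 1823 other genes the closest to the sum were Sepp1 (r = 0.81), Ftl1 (r = 0.80), 5430435G22Rik and Celf2 (r = 0.77 each), Ctsl (r = 0.76) and Gpnmb (r = 0.75). Closest to Psap were Lgals3 (r = 0.95) and Ftl1 (r = 0.93), and to Hexa Ctsb and Rpl10 (r = 0.89 each).

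Other measures moved with the same groups. Summed macrophage genes went from 3734 ± 393 CPM in T0 controls to 3197 ± 238 at high-dose halofuginone and from 3162 ± 292 to 1705 ± 375 at T4. Summed housekeeping genes such as Actb and Gapdh went from 16121 ± 1188 to 11625 ± 1642 CPM at T0, from 15519 ± 1248 to 9336 ± 1179 at T1 and from 22548 ± 1429 to 11534 ± 1560 at T4, with no overlap between the T1 or the T4 ranges. The neutrophil list, 9 genes of which 8 are in the table, went from 184 to 433 CPM (333 ± 70.9) in T0 controls to 0 to 149 CPM (71.3 ± 55.4), and from 106 to 419 CPM (212 ± 85.8) to 0 to 83.9 CPM (39.3 ± 27.2) at T4. The share of Rn45s and these lists differ between treated and control libraries as the members do, and their part in the results was not tested.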

How the data were processed

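The deposited table holds whole-number counts per gene symbol for 120 libraries, made by the authors with a 3′ digital gene expression protocol, per the labels' protocols. Alignment with BWA to mm10 is listed in the submitters' processing notes; the counting tool is not given in the sources used here, nor is it stated whether reads were collapsed by molecular barcodes, so intervals cover counting error only. Counts were tested with edgeR 4.0.16 (R 4.3.3) quasi-likelihood fits: TMM factors per fit, genes kept by group with a minimum count of 10, two-sided Benjamini-Hochberg adjusted p over all genes tested, threshold 0.05. SE is the fold change divided by the root of F. Treated groups of a time were fitted with its 12 controls, each dose as its own group, and contrasts averaged the doses. Printed levels use TMM factors over all 120 libraries, a scale chosen after the data had been seen. Alternatives were other scalings, no filter, DESeq2 1.42.0, a replicate block and libraries or doses left out; 26 comparisons were planned and 3 added. The scripts were tested on simulated data. Members and gene lists were chosen with earlier results of these data known. The text names all members and, of the 60 other lysosomal genes, those among the 4 smallest adjusted p in a direction. Promoters are from RefSeq (GRCm38.p6).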

Additional observations from a re-analysis of the deposited data

Results flagged for a closer look

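The change of Psap with high-dose halofuginone differed between T4 and T0 by -1.30 log2 (SE 0.33, edgeR adjusted p = 0.0015), in a direct test over 18 treated and 36 control libraries. Over all genes the median of this difference was -0.43, and 20.3% of 1077 genes were called lower. In the separate fits of each time, which were scaled apart from this test, the Psap effect was -0.58 at T0 and -1.71 at T4. All 6 treated T4 libraries lay below the 12 controls on the joint scale, where the median over all genes was -0.61. The difference lost its call with median-of-ratios scaling (-0.93, adjusted p = 0.0535) and with no filter on low counts (-1.22, adjusted p = 0.0922).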

How the results depend on the processing

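The numbers below count called members unless stated. Percentages in brackets after a list give the share of all genes called in either direction, in the order of the list. With no filter on low counts they were 0 for T1 and 4 for T4 against T0 in controls, 3 for T4 against T1, 0 and 1 for the middle doses at T0 and T1, 0 for proline at the middle doses at T4 and over the 3 times, 1 for the T0 slopes of each arm, 2 for the T4 slope with proline and 0 for the T4 less T0 difference. Of all genes 0.0933% to 17.6% were called in these comparisons with no filter, in each a lower share than with it. Median-of-ratios scaling gave 3 for T4 against T1, 4 at high dose at T1, 5 at the middle doses at T4, 2 for the T4 slope with proline and 0 for the T4 less T0 difference (59.0%, 36.9%, 41.9%, 46.0% and 16.1% of all genes). Scaling over all 120 libraries was chosen after the data had been seen. It gave 3 for T4 against T1, 5 at the middle doses at T4 and 2 for each of the T1 and T4 slopes with proline. On that scale 241 of 708 genes were called higher and 184 lower for T4 against T1. Of all genes 43.6% were called at the middle doses at T4, and 29.8% and 44.3% for the T1 and T4 slopes with proline. DESeq2 gave 3 for T4 against T1, 2 for the T4 slope with proline, 1 for T1 less T0 and 2 (Psap and Hexa) for proline at the middle doses over the 3 times (58.6%, 49.0%, 6.31% and 11.3%). Without libraries under 30000 counts the numbers were 1 at high dose at T1, 1 for proline at the middle doses at T4, 2 for the T4 slope with proline and 0 for proline at the middle doses over the 3 times (16.9%, 0.762%, 37.6% and 1.15%). Without 10000 nM they were 0 at high dose at T1, 1 with proline at T0 and 1 at T1, 0 for the T1 slope, and with proline 1 for the T0 slope and 2 for the T4 slope (24.9%, 34.9%, 29.2%, 16.6%, 35.1% and 42.2%). Without Rn45s and other structural RNAs they were 1 for the T4 slope and 4 for the T0 slope with proline (30.4% and 33.3%). With doses pooled, also added after the data had been seen, the middle doses at T1 gave 1 (25.6%). The cause of these shifts was not tested.

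Whether replicate numbers pair the libraries was not settled. Same-numbered controls correlated at -0.02 to 0.27 (8 of 36 pairs over 0.1) and arms of a dose at -0.07 to 0.08. Controls numbered 9 and 10 were over 0.1 in every pair of times. Differently numbered libraries were not correlated for reference, so these values cannot exclude pairing. With the replicate number as a block, the counts were 0 at high dose at T1, 1 with proline at T1, 0 and 1 for the middle doses at T0 and T1, and 1 for proline at the middle doses at T4. Of all genes 19.5%, 20.1%, 11.7%, 14.4% and 2.13% were called, in the same order. Of 56 member calls 46 were kept, and of 83 calls of other lysosomal genes 65. Those lost were Psap at high dose at T0 (-0.61, adjusted p = 0.125) and T1, Cd68 at T1 and Grn at T4 (0.77, adjusted p = 0.052), with proline Psap and Grn at T1 and Grn at T4, Psap at the middle doses at T0 and T1, and Hexa between the arms at T4.

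Leaving out 1 library in turn gave 3 to 3, 7 to 7 and 3 to 6 called members for the 3 control comparisons, 2 to 4, 1 to 4 and 3 to 5 at high dose at T0, T1 and T4, 3 to 4, 1 to 3 and 2 to 4 with proline, and 0 throughout between the arms. With all libraries in, the share of all genes called in either direction was 26.1%, 76.4% and 62.1% for the control comparisons. It was 38.5%, 34.5% and 54.6% at high dose, 43.5%, 38.8% and 52.0% with proline, and 0.177%, 0% and 0% between the arms. The middle doses gave 0 to 2, 0 to 3 and 3 to 4 called members, and 0, 0 and 0 to 2 between the arms. Of all genes 28.4%, 29.1% and 40.6% were called there with all libraries in, and 2.12%, 1.31% and 3.73% between the arms. For called members the slopes gave 0 to 3, 0 to 1 and 1 to 2, with proline 1 to 2, 1 to 1 and 1 to 2, the differences of T1 and T4 less T0 0 and 1 to 2, and proline over the 3 times 0 to 1. With all libraries in, the slopes called 26.5%, 17.8% and 38.2% of all genes, with proline 39.9%, 32.2% and 44.9%. The differences of T1 and T4 less T0 called 6.13% and 21.4%, and proline at the middle doses over the 3 times 3.5%. Directions reversed for Grn at high dose with proline at T1 with no filter (-0.12) and for Clcn7 at high dose at T1 without the 625 nM library numbered 2 (-0.57, in a range of -0.57 to 1.44).

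Scaling moved whole comparisons. The median over all genes at high dose went from -0.21 to -0.32 at T1 and from -0.23 to -0.41 at T4 with median-of-ratios scaling, and to -0.49 and -0.61 when scaled over all 120 libraries. Genes called higher and lower at T4 went from 251 and 467 to 183 and 497, then 120 and 557, with proline from 245 and 439 to 188 and 483, then 107 and 536, and at the middle doses from 193 and 341 to 121 and 430, then 106 and 467. At T1 they went from 120 and 248 to 102 and 291, then 71 and 349. For T4 against T0 in controls they went from 258 and 283 to 288 and 200, then 283 and 212. No called member changed direction under these scalings. Depth limits Cd68, Gusb, Lgmn and Hexa most (824, 847, 1043 and 1433 counts in all libraries), and Hexa at T4 rests on 3, 7 and 10 counts in the middle-dose group, the high-dose group and the latter with proline.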
